A study of Mus musculus with 5 samples.

Results

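Lars2 and Gm26917 are 2 genes that took a large share of the normalized reads in RNA libraries of mouse satellite cells, Gm26917 in mdx and Lars2 in wild type. They were chosen by their share of each library's total, so their shares, levels and fold changes are given here as a description with no test. They are 2 of the 22683 genes in the deposited table, and are set beside its 2 mitochondrial ribosomal RNA genes, mt-Rnr1 and mt-Rnr2. Satellite cells are the resident stem cells of muscle. The samples were 3 libraries from mdx mice, which model muscular dystrophy through a mutation of the dystrophin gene, and 2 libraries from wild-type mice. All were labelled quiescent satellite cells, were purified by flow cytometry, and were made from 10000 to 20000 cells each with a strand-specific kit for small amounts of total RNA. The sources used here give no treatment, age, strain, muscle or sorting gate, and do not say whether each library came from its own animal. P-values therefore reflect variation between libraries, some or all of which may be technical.

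Lars2 encodes the mitochondrial leucyl-tRNA synthetase, a nuclear-encoded enzyme that loads leucine onto its tRNA for translation inside mitochondria. Gm26917 is a gene model annotated as a long intergenic noncoding RNA, with no protein product. The mitochondrial genes mt-Rnr1 and mt-Rnr2 encode the ribosomal RNAs of the small and the large subunit of the mitochondrial ribosome. Total RNA kits prime RNA with and without poly(A) tails and then deplete ribosomal sequences, so what is left of an rRNA or an rRNA-like sequence depends on its abundance and on its depletion, which cannot be told apart in these values. A read that matches several loci is dropped, split or counted at 1 of them according to the counting settings, and the sources used here do not give those settings.

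Lars2 lies on chromosome 9, 123366927 to 123462664 on the plus strand (mm10), and Gm26917 on chromosome 17, 39843013 to 39846341, also on the plus strand. The longest annotated Lars2 transcript (GENCODE M21, build GRCm38) has 3894 bases in 21 exons, with the coding sequence at bases 200 to 2908 and the 3′ UTR at bases 2909 to 3894. Of its 3865 windows of 30 bases, 45 also occurred in a transcript of another gene, which is 1.16%. All 45 lay in the 3′ UTR, and the other genes were Gm15564 (antisense RNA, chromosome 16) and AA474408 (chromosome 7). The best match was a block of 72 bases that was 98.6% identical between Lars2 and Gm15564, at transcript bases 3278 to 3349, which is chr9:123462048-123462119 in the last exon. AA474408 aligned over 196 bases at 80.1% identity. The mouse Lars2 3′ UTR is known to hold a fragment of large-subunit ribosomal RNA sequence. No cytoplasmic rRNA sequence was compared here. The following 30 bases, from inside the identical run of 52 bases, are shown because they are what Lars2 shares with the other genes (chr9:123462059-123462088, plus strand, for Lars2). The capital marks the base in which AA474408 differs from Lars2.
Lars2: gcgttggattgttcacccactaatagggaa
Gm15564: gcgttggattgttcacccactaatagggaa
AA474408: gcgttggattgttcacccactaataAggaa

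Gm26917 had no such overlap. Its longest transcript is 1 exon of 3329 bases, and 0 of its 3300 windows of 30 bases occurred in a transcript of another gene. At an E-value limit of 1e-05, 0 other genes aligned to it, against 8 for Lars2, and Lars2 and Gm26917 did not align to each other. The name of multimapping loci therefore could be checked only against annotated transcripts, in which it held for a short stretch of Lars2 and not for Gm26917. A shared stretch is not particular to Lars2, since 44 of the 1553 windows of mt-Rnr2 (2.83%) occurred in a transcript of Gm20594. The share over all genes was not computed. Unannotated copies and whole ribosomal repeats were not analysed here. What sets the Gm26917 sequence apart is its base composition. Its GC content was 69.1%, against a median of 49.0% over the tested genes, and 0.110% of tested genes had a GC content at least as high. It held 11.2 CpG per 100 bases, against 1.88 for Lars2. In windows of 100 bases its GC content ranged from 55% to 80%, against 36% to 66% for Lars2. Its end lies 12 bases before the RefSeq gene Rn18s-rs5 (39846354 to 39848202, GRCm38.p6), a copy of small-subunit ribosomal RNA, which has no row in the deposited table. The first and last 100 bases are shown because both carry the composition described and the last 100 lie next to this ribosomal copy, with CpG in capitals (chr17:39843013-39843112 and chr17:39846242-39846341, plus strand).
Gm26917 first 100 bases: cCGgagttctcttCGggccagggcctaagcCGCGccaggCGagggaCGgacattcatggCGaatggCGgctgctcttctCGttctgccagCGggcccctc
Gm26917 last 100 bases: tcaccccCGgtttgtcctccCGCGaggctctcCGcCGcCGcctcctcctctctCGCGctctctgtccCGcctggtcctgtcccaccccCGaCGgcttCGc
The first stretch held 10 CpG and the last 12.

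**Figure D1:**
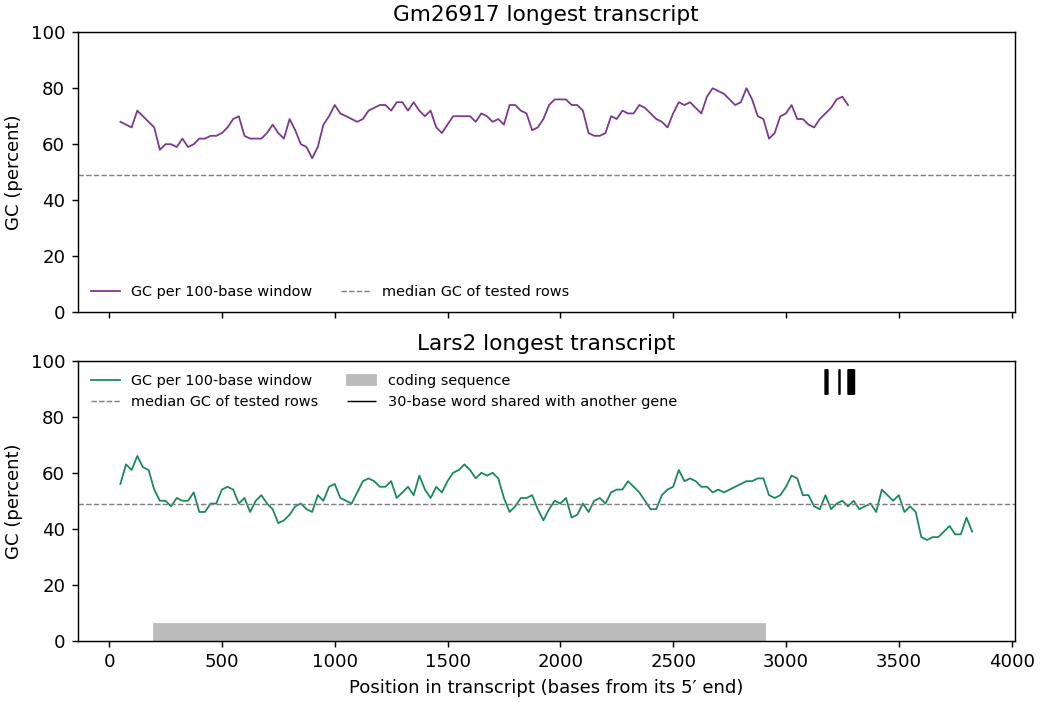
GC content in windows of 100 bases (percent) against the position in the longest transcript of Gm26917 (top) and Lars2 (bottom), with the median GC content of the tested genes as a dashed line, the Lars2 coding sequence as a grey bar and 30-base words that another gene shares as black ticks. Gm26917 lies above the median along its whole length, and the shared words of Lars2 fall in its 3′ UTR.

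The mdx and wild-type libraries differed in more than genotype. Normalized totals were 12473348 to 15930638 in mdx and 15217054 to 16825045 in wild type. Of the 18199 genes tested, 2659 (14.6%) were higher and 1868 (10.3%) lower in mdx in the limma fit at an adjusted p under 0.05. The median log2 fold change of all tested genes was 0.13. Small nucleolar RNAs held 0.0458% to 0.0503% of the total in mdx and 15.4% to 18.8% in wild type. Xist, the RNA of the inactive X chromosome, had 0, 0 and 12 normalized counts in mdx against 30235 and 30176 in wild type, and Eif2s3y and Uty, both Y-linked, were at 0 in both wild-type libraries. Genotype, sex and small-RNA content therefore cannot be told apart. Satellite cell markers were present in every library, 9 of 9 above 0, with summed levels of 2550 to 3534 CPM in mdx and 4275 to 5452 CPM in wild type, where CPM is the normalized count rescaled so that every library has the same total. Of these markers, 2 were higher and 6 lower in mdx. Sdc4 weighed most in the wild-type sums, with 30886 and 27833 counts, against 3261, 2633 and 2916 in mdx. Pax7 had 12767, 9751 and 14989 counts in mdx against 9103 and 7644 in wild type (limma adjusted p = 0.0698). Both are named after their values were seen, and the sums alone do not give the direction of each marker. Markers of other cell types in muscle were higher in mdx. All 5 endothelial markers rose (summed level 779 to 963 CPM in mdx, 9.20 to 13.8 CPM in wild type, Emcn at 0 in wild type). Of 5 macrophage markers 4 rose (620 to 961 CPM in mdx, 27.3 to 35.4 CPM in wild type), and so did all 4 mesenchymal markers (1586 to 2933 CPM in mdx, 53.2 to 65.7 CPM in wild type). Of 4 myofiber markers 2 rose (1843 to 5293 CPM in mdx, 159 to 205 CPM in wild type), and 1 of 3 erythroid markers rose (3.93 to 41.2 CPM in mdx, 0.526 to 0.892 CPM in wild type). Ttn weighed most in the myofiber sums, with 37164, 64744 and 23685 counts in mdx against 2475 and 2100 in wild type. The myofiber markers Ckm and Myh4 did not pass (limma adjusted p = 0.694 and 0.161). Ttn, Ckm and Myh4 are named after their values were seen. In bulk libraries, more cells of a type and more RNA per cell cannot be told apart. The part of these differences in the levels of Lars2 and Gm26917 was not tested.

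Lars2 had 852, 741 and 893 normalized counts in mdx 1, 2 and 3, against 204680 and 225347 in wild type 1 and 2. The groups lay far apart, and within each group the highest library was within 1.21 times the lowest. The mean was 829 ± 78.6 in mdx (SD, n = 3) and 215014 ± 14614 in wild type (SD, n = 2), which is 259-fold higher in wild type. On the log2(normalized count + 2) scale the difference, mdx minus wild type, was −8.02. Of the tested genes, 114 had a lower value than this. As a share of the library total, Lars2 took 0.00535%, 0.00594% and 0.00641% in mdx, against 1.345% and 1.339% in wild type. By rank, it was the gene at place 3021, 3485 and 2898 in mdx 1, 2 and 3, and at place 4 and 6 in wild type 1 and 2. In wild type it alone made up 1.84% and 1.95% of all protein-coding counts.

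Gm26917 went the other way. Its normalized counts were 924533, 803592 and 1371309 in mdx 1, 2 and 3, against 53174 and 82217 in wild type 1 and 2. No wild-type library came near an mdx one, and mdx 3 stood 1.71 times above the lowest mdx library. The mean was 1033145 ± 299037 in mdx (SD, n = 3) and 67696 ± 20537 in wild type (SD, n = 2), a 15.3-fold higher level in mdx. The difference was 3.93 on the log2(normalized count + 2) scale, and 1137 tested genes had a higher value. Gm26917 took 5.80%, 6.44% and 9.84% of the total in mdx, against 0.349% and 0.489% in wild type. It ranked 2, 1 and 2 among all genes in mdx 1, 2 and 3, and 22 and 20 in wild type 1 and 2. Of all counts given to lincRNA genes, Gm26917 alone held 80.1%, 78.6% and 87.9% in mdx, against 10.1% and 16.0% in wild type.

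Set against each other, the genes changed places. There were 1085, 1084 and 1536 counts of Gm26917 for each count of Lars2 in mdx, against 0.260 and 0.365 in wild type. Together they took 7.37% ± 2.17 of the total in mdx (SD, n = 3) and 1.76% ± 0.0944 in wild type (SD, n = 2). Counts per kb of longest transcript allow levels of different genes to be compared only if reads spread over the whole transcript. Counts per gene do not show this. Per kb, Gm26917 had 241391 to 411928 normalized counts in mdx and 15973 to 24697 in wild type. Lars2 had 190 to 229 per kb in mdx and 52563 to 57870 in wild type. The shares plotted by library show the exchange, with mt-Rnr1 between them in both genotypes.

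**Figure D2:**
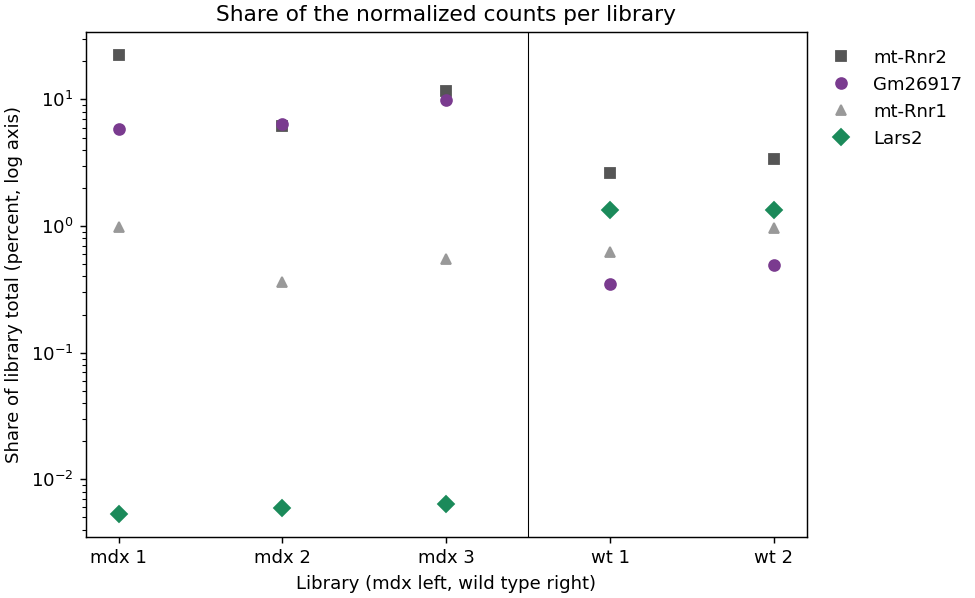
Share of the library total (percent, log axis) of mt-Rnr2, Gm26917, mt-Rnr1 and Lars2 in each mdx library (left) and each wild-type library (right). Each point is 1 library. Gm26917 lies between 5.80% and 9.84% in mdx and below 0.5% in wild type, and Lars2 lies below 0.01% in mdx and near 1.34% in wild type.

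The mitochondrial rRNA genes varied more among the mdx libraries than either member. mt-Rnr2 had 3559716, 775931 and 1623783 normalized counts in mdx, against 399269 and 572562 in wild type. Each mdx library exceeded both wild-type libraries, but mdx 1 held 4.59 times the count of mdx 2. mt-Rnr1 had 157084, 44722 and 77067 counts in mdx, against 95047 and 162849 in wild type, so its groups overlapped. The pair together took 23.3%, 6.58% and 12.2% of the total in mdx, against 3.25% and 4.37% in wild type. The difference of the means was 10.2 percentage points, and 5.58 without mdx 1. There were 22.7, 17.3 and 21.1 counts of mt-Rnr2 for each count of mt-Rnr1 in mdx, against 4.20 and 3.52 in wild type, although both come from the same strand of the mitochondrial genome. Gm26917 did not keep a fixed ratio to this pair: its count was 24.9%, 97.9% and 80.6% of theirs in mdx, against 10.8% and 11.2% in wild type. Lars2 came to 0.0229%, 0.0903% and 0.0525% of theirs in mdx, against 41.4% and 30.6% in wild type. The 10 genes with the largest mean share over all 5 libraries were these 4 and 6 others, and since the genotypes differ, the shares of the others are given by group. Malat1, a nuclear long noncoding RNA, took 0.990% to 1.27% in mdx and 1.755% to 2.29% in wild type. The small nucleolar RNA gene Gm24119 took 0.000168% to 0.00311% in mdx and 3.39% to 3.52% in wild type, where it lay above Lars2. mt-Co1 of cytochrome oxidase took 0.533% to 1.80% in mdx and 0.890% to 1.41% in wild type, so its groups overlapped. Eef1a1, a translation elongation factor, took 0.234% to 0.360% in mdx and 1.31% to 1.46% in wild type. Rn7sk, the RNA that holds back a transcription elongation factor, took 0.00967% to 0.0387% in mdx and 0.697% to 1.04% in wild type. mt-Cytb, encoding cytochrome b, took 0.0652% to 0.300% in mdx and 0.463% to 0.765% in wild type.

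Lars2 was set beside its own enzyme family, the 18 other genes of mitochondrial aminoacyl-tRNA synthetases, each of which loads 1 kind of amino acid. Of the 18, 1 was higher in mdx, 0 were lower and 17 did not pass the limma test, with 2 lower at an unadjusted p under 0.05. Over all tested genes 14.6% were higher and 10.3% lower, so counts of 1 and 0 of 18 are near the background and are no result about the family. Their median log2 fold change was −0.13, against 0.13 over all tested genes. Sars2, the seryl-tRNA synthetase, had 57, 169 and 217 counts in mdx against 14 and 7 in wild type. Each mdx library exceeded both wild-type libraries, and it rose by 3.44 on the log2 scale (SE 0.94, adjusted p = 0.0277 in the limma fit). The call was lost without mdx 2 (adjusted p = 0.108) and without mdx 3 (adjusted p = 0.126). It was also lost with the replicate number as a block (limma adjusted p = 0.151). Kars, the lysyl-tRNA synthetase of cytosol and mitochondria, is named after its values were seen, as the gene with the next smallest p, with 748, 1152 and 1162 counts in mdx against 1986 and 1493 in wild type (limma adjusted p = 0.0633). Per kb of longest transcript, Lars2 stood within this family in mdx and far outside it in wild type. In mdx it had 219, 190 and 229 counts per kb, which was 3.00, 3.19 and 2.69 times the median of the other 18, and 3 of them lay above it in each mdx library. In wild type it had 52563 and 57870 counts per kb, which was 602 and 765 times the median, and 64.0 and 93.8 times the highest other member, Kars. How evenly the Lars2 reads spread over its transcript is not known here, so these ratios may not be ratios of transcript level.

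**Figure D3:**
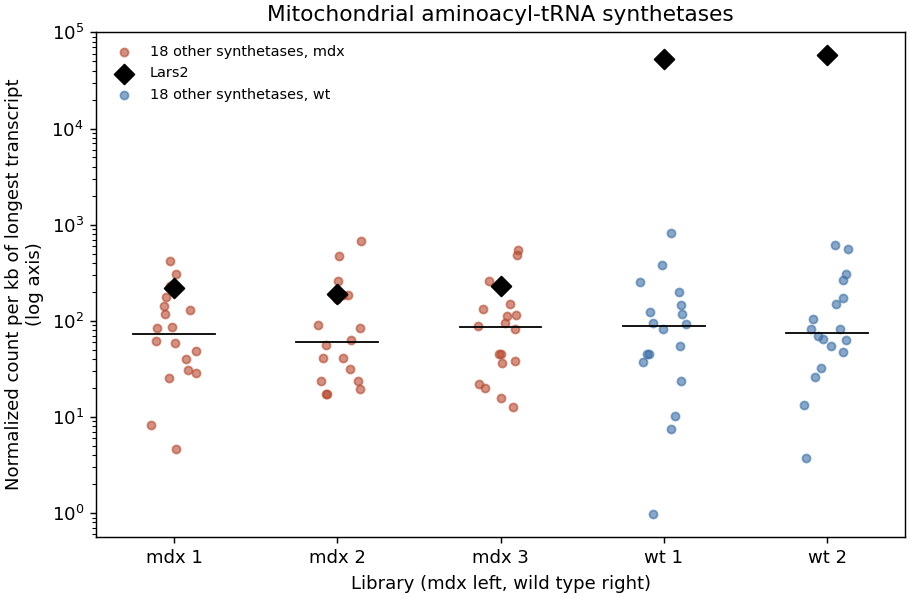
Normalized counts per kb of longest transcript (log axis) of Lars2 (black diamonds) and the 18 other mitochondrial aminoacyl-tRNA synthetases (dots, with their median as a line) in each mdx library (left) and each wild-type library (right). Lars2 lies among the other members in the 3 mdx libraries and above all 18 in both wild-type libraries.

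The genes that share sequence with Lars2 did not all follow it. Gm15564, which carries the 98.6% identical block, had 218, 171 and 386 counts in mdx against 42671 and 37335 in wild type. It fell with a log2 fold change of −7.35 (SE 0.32, limma adjusted p = 3.26e-06), and no library of one genotype came near the other. There were 3.91, 4.33 and 2.31 Lars2 counts for each Gm15564 count in mdx, against 4.80 and 6.04 in wild type. AA474408, with the less alike copy, had 21, 90 and 104 counts in mdx against 146 and 95 in wild type, and its log2 fold change of −0.98 did not pass the test (limma adjusted p = 0.430). Because Lars2 and Gm15564 share a stretch, their counts may hold reads of the same origin, which was not tested. Their agreement therefore cannot be taken as that of independent genes. How many of the Lars2 reads fell in this stretch cannot be read from counts per gene.

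Small noncoding RNAs as a class lay on the same side as Lars2. Small nuclear RNAs took 0.0159% to 0.0267% of the total in mdx and 0.898% to 0.922% in wild type. Small Cajal body RNAs took 0.0112% to 0.0177% in mdx and 0.452% to 0.548% in wild type. The miscellaneous RNA type, which holds Rn7sk, took 0.0190% to 0.0479% in mdx and 0.802% to 1.20% in wild type. In wild type most of this was Rn7sk alone, at 0.697% and 1.04% of the total, so the type largely repeats that gene. Lars2 came to 10.6%, 11.9% and 14.0% of the summed small nucleolar RNA count in mdx, and to 8.75% and 7.13% in wild type. Gm26917 took the opposite direction to these types. Whether read length, fragment size or depletion differed between the genotypes' libraries is not stated in the sources used here, and the part of small-RNA content in the Lars2 level was not tested.

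**Figure D4:**
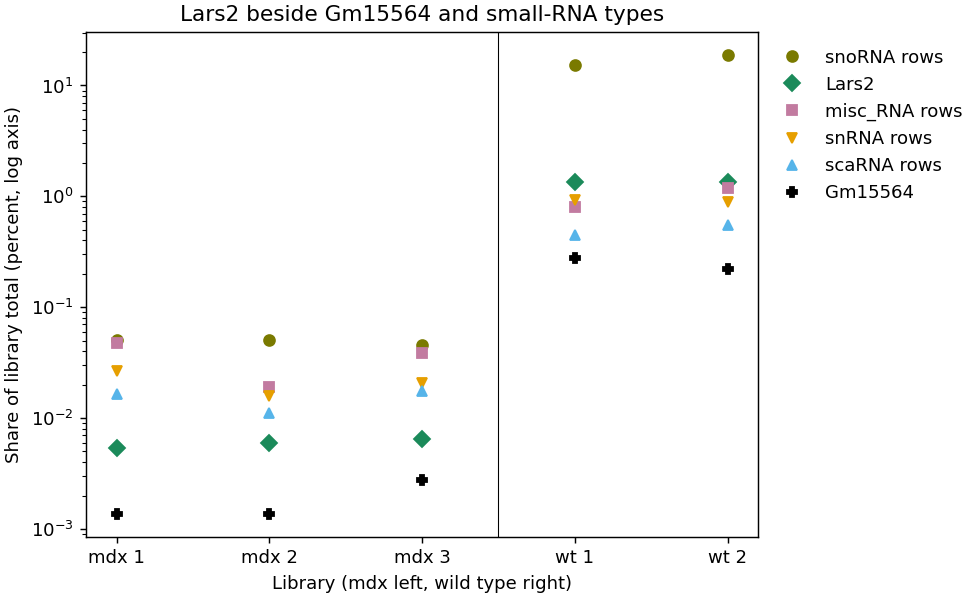
Share of the library total (percent, log axis) of Lars2, Gm15564 and 4 types of small noncoding RNA in each mdx library (left) and each wild-type library (right). All 6 lie higher in both wild-type libraries than in any mdx library.

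Gm26917 sits at the edge of a ribosomal copy, and the genes of that locus were lower in mdx or did not pass the test, where Gm26917 was higher. Gm42418, a lincRNA model that begins 616 bases after Gm26917 and overlaps Rn18s-rs5, had 340, 42 and 444 counts in mdx against 6937 and 7847 in wild type. Its groups did not overlap, and it was lower in mdx (log2 fold change −5.29, SE 0.84, limma adjusted p = 0.00262). The call was lost without wild type 1 (adjusted p = 0.254), without wild type 2 (adjusted p = 0.294) and with no filter on low values (adjusted p = 0.0702). There were 2719, 19133 and 3089 Gm26917 counts for each Gm42418 count in mdx, against 7.67 and 10.5 in wild type. CT010467.1, an rRNA-type gene on the minus strand of the same place, had 36, 9 and 39 counts in mdx against 30 and 55 in wild type (limma adjusted p = 0.660). Of the windows of Gm42418, 96.4% also occurred on the opposite strand in GENCODE M21 transcripts of CT010467.1 and AY036118. In the deposited table CT010467.1 spans 725 bases, against 2475 in M21, and overlaps only part of Gm42418. AY036118 has no row there. Where the counted genes overlap, their reads are kept apart only if counting used strand, which the sources used here do not say.

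Apart from Gm15564 and Gm42418, given above, the rRNA-like genes were low in every library. Gm24270, a miRNA-type model, was listed at 0 in all mdx libraries and at 37 and 32 in wild type. It passed the test narrowly (limma adjusted p = 0.0477), and the call was lost without mdx 3 (adjusted p = 0.0513) and under both other pseudocounts, no filter and both other scalings (adjusted p = 0.0506 to 0.0657). The call was also lost with the replicate number as a block (adjusted p = 0.101). The 39 genes of rRNA type summed to 432, 269 and 322 counts in mdx, against 488 and 361 in wild type. Those groups overlapped, and the sum was at most 0.00321% of a library. Of the 39, 10 had enough counts to be tested by limma, 0 were higher (1 at an unadjusted p under 0.05) and 1 was lower. Over all tested genes 14.6% were higher and 10.3% lower, so these counts are near the background and are no result about the type. The lower one was n-R5-8s1, listed at 0 in all mdx libraries and at 50 and 65 in wild type (limma adjusted p = 0.0242). Its call was lost with the replicate number as a block (adjusted p = 0.0729). AY036118, Rn18s-rs5, Rn45s and Gm26870 have no row in the table. No other rRNA-like or rRNA-type gene came near Gm26917 in mdx, the highest count among them there being 444, that of Gm42418 in mdx 3.

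The genes on either side of the members gave few calls. Of the 10 nearest genes of Lars2, 5 on each side, 9 were tested by limma, 1 was higher in mdx, 0 were lower (1 at an unadjusted p under 0.05) and 8 did not pass, against 14.6% higher and 10.3% lower over all tested genes, so these counts are near the background. The higher one was Clec3b, encoding the plasminogen-binding protein tetranectin, 209494 bases before Lars2. Clec3b had 552, 421 and 450 counts in mdx against 5 and 41 in wild type (log2 fold change 4.77, SE 0.78, limma adjusted p = 0.00272). The closest neighbour was Limd1, a LIM domain gene 16041 bases after Lars2, with 1323, 694 and 986 counts in mdx against 1083 and 1247 in wild type (limma adjusted p = 0.545). Zdhhc3, a palmitoyltransferase gene, and Exosc7 of the RNA exosome lay before Lars2, and Sacm1l, a phosphoinositide phosphatase gene, lay after it, and none of these 3 passed. Cdcp1, Tmem158, Slc6a20b and Ccr9 did not pass either, and Slc6a20a was too low to test. No neighbour of Lars2 exceeded 1339 counts in any library.

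Around Gm26917, 7 of the 10 nearest genes were tested by limma, 0 were higher (also 0 at an unadjusted p under 0.05), 2 were lower and 5 did not pass, against 14.6% higher and 10.3% lower over all tested genes, and so few genes give no result about the locus. One of the lower genes was Gm42418, given above. The other was H2-M3, a nonclassical class I histocompatibility gene 2568528 bases before Gm26917, with 44, 23 and 63 counts in mdx against 197 and 513 in wild type (log2 fold change −2.93, SE 0.74, limma adjusted p = 0.0208). Its call was lost without mdx 1 (adjusted p = 0.0665), mdx 2 (0.0637), mdx 3 (0.0555) or wild type 2 (0.116). The H2-M3 call was also lost with the replicate number as a block (limma adjusted p = 0.0803). Beyond CT010467.1, the neighbours Olfr111, Gm20574, 9130008F23Rik and Cenpq did not pass, and Gm19807, Olfr755-ps1 and Olfr101 were too low to test. The highest count among the 10 was 7847, that of Gm42418 in wild type 2.

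Genes that make and process cytoplasmic rRNA were examined because Gm26917 borders a ribosomal copy. Of 35 genes, 2 were higher and 13 lower in mdx, and 20 did not pass, where over all tested genes 14.6% were higher and 10.3% lower. Their median log2 fold change was −0.35, against 0.13 over all tested genes. Of the 15 genes of RNA polymerase I and its factors, 4 were lower and 0 higher by limma, also 0 at an unadjusted p under 0.05, and their median log2 fold change was 0.03. Over all tested genes the share lower was 10.3% and the share higher 14.6%. Polr1c, a subunit of RNA polymerases I and III, had 263, 231 and 358 counts in mdx against 1534 and 2324 in wild type (log2 fold change −2.75, SE 0.32, limma adjusted p = 0.000473). Znrd1, a small subunit of RNA polymerase I, had 45, 52 and 58 counts in mdx against 738 and 970 in wild type (log2 fold change −3.99, limma adjusted p = 0.000584). In both genes every mdx library lay below both wild-type libraries. Twistnb, another subunit, and Polr1d, shared with RNA polymerase III, fell as well (log2 fold changes −1.64 and −1.93), Polr1d not without mdx 3 (adjusted p = 0.0562). Neither passed with the replicate number as a block (adjusted p = 0.0549 and 0.0559). The catalytic subunit gene Polr1a and the activator gene Ubtf did not pass (limma adjusted p = 0.153 and 0.936), and are named after their values were seen.

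Of the 20 rRNA processing genes, 9 were lower, 2 were higher and 9 did not pass, with a median log2 fold change of −0.53, where 10.3% of all tested genes were lower and 14.6% higher. Nop58, a core protein of box C/D small nucleolar RNPs, had 3227, 2781 and 1549 counts in mdx against 9288 and 11043 in wild type (log2 fold change −2.07, SE 0.29, limma adjusted p = 0.00124). Fbl, the methyltransferase fibrillarin of the same particles, had 307, 172 and 212 counts in mdx against 1041 and 1075 in wild type (log2 fold change −2.23, limma adjusted p = 0.00230). Nip7 and Wdr12, both of large-subunit assembly, fell with log2 fold changes of −2.41 and −1.58, Wdr12 not without mdx 3 (adjusted p = 0.0507). Wdr12 also did not pass with the replicate number as a block (limma adjusted p = 0.0682). The 2 genes that rose, named after their values were seen, were Npm1, encoding the nucleolar chaperone nucleophosmin, and Rrp1. Npm1 had 3882, 6435 and 5645 counts in mdx against 2016 and 2872 in wild type (limma adjusted p = 0.0128), and its call was lost without mdx 2 (0.0768) and without mdx 3 (0.0871). Rrp1 had 1480, 1186 and 1281 counts in mdx against 822 and 749 in wild type (limma adjusted p = 0.0401), and it was lost without mdx 1 (0.103), mdx 2 (0.0687), mdx 3 (0.0914) or wild type 2 (0.113). When libraries were scaled to their total without Lars2, Gm26917 and the mitochondrial rRNAs, the 35 genes gave 7 higher and 8 lower. In that fit 3906 of all 18186 tested genes were higher and 1090 lower. The balance of higher and lower genes depended on the scaling, both in this list and over all tested genes. The scaling moved the median log2 fold change of all tested genes by 0.45. Its total kept the small nucleolar RNAs, which were far higher in wild type, and their part in this shift was not tested.

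The genes most like each member in pattern over the 5 libraries were found among 8987 others with a mean of at least 10 CPM and no 0, by the root mean square difference of log2(CPM) centred on each gene's mean. This is a description, since any gene with a like difference between the genotypes comes near. For Lars2 the nearest were the small nucleolar RNA gene Snora23 (0.35), the minor spliceosomal RNA gene Rnu12 (0.36), the small nucleolar RNA model Gm26448 (0.36), the pseudogene Gm11249 (0.44) and the miscellaneous RNA model Gm22025 (0.44). Of these 5, 4 are annotated as short noncoding RNA genes, with longest transcripts of 151 to 302 bases against 3894 for Lars2. Gm11249 had 4, 2 and 2 counts in mdx against 770 and 478 in wild type. Gm22025 had 2, 1 and 3 against 578 and 565. Both reached the limit of 10 CPM only through wild type, and their mdx values lie at the floor. Snora23 had 272, 198 and 170 counts in mdx against 34691 and 42690 in wild type, so its levels were set apart much as those of Lars2 were.

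For Gm26917 the nearest were 5 protein-coding genes. C3, encoding complement component C3, came first (0.15), with 2017, 2130 and 2842 counts in mdx against 125 and 222 in wild type. H2-Aa, a class II histocompatibility chain of antigen-presenting cells, came next (0.21), with 604, 394 and 951 counts in mdx against 33 and 40 in wild type. Then came Ucp2, a mitochondrial carrier gene (0.25), Rab11fip5, an endosome trafficking gene (0.25), and Atp9a, a phospholipid flippase gene (0.26). Macrophage markers, to which H2-Aa is related by cell type, were themselves higher in mdx as given above, and their part in these values was not tested. Lars2 and Gm26917 differed from each other by 5.86 on this measure, and Gm26917 and mt-Rnr2 by 1.25.

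**Figure D5:**
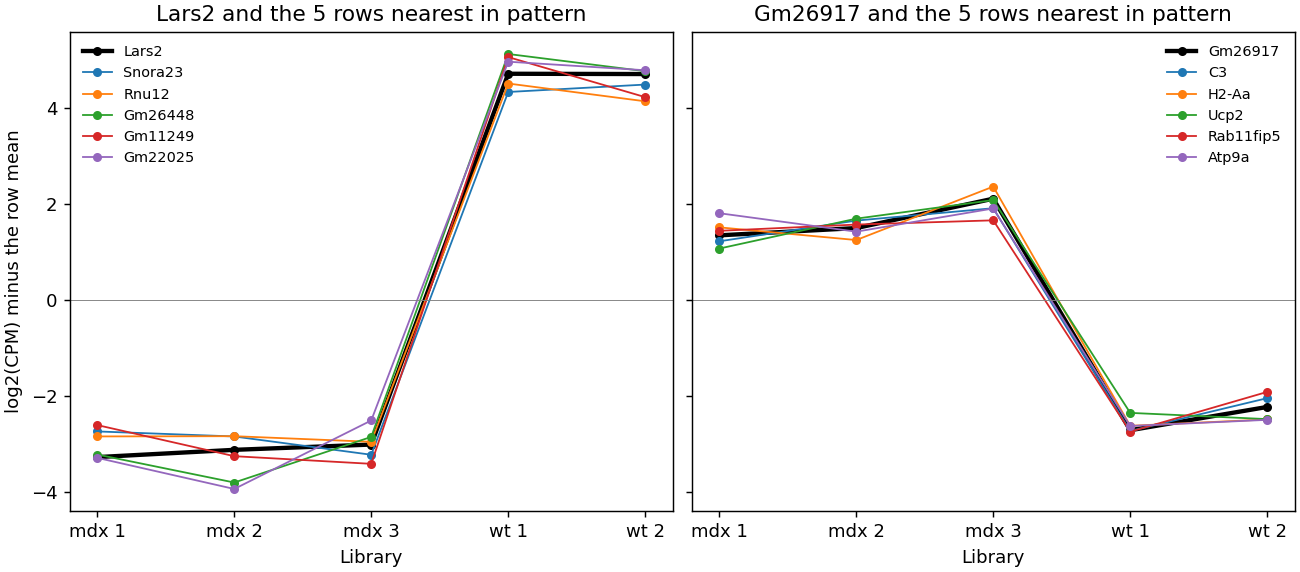
log2(CPM) minus the gene's mean over the 5 libraries, for Lars2 (left, black) and Gm26917 (right, black) with the 5 genes nearest to each in pattern (colours), in the 3 mdx and 2 wild-type libraries. Lines join the values of a gene. The genes near Lars2 are high in wild type, and those near Gm26917 are high in mdx.

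Because the members and the mitochondrial rRNAs took 29.1%, 13.0% and 22.1% of the total in mdx, against 4.94% and 6.20% in wild type, they bear on any scaling by library totals. Without them, the totals were 11288453, 10848362 and 10859218 in mdx, against 14464884 and 15782070 in wild type. The mdx libraries then lay closer together, the highest total being 1.04 times the lowest against 1.28 times for all rows. Over all 5 libraries the spread widened, the highest total being 1.45 times the lowest without these genes against 1.35 times with them. As deposited, 58.7% of the called genes were higher in mdx. With all libraries scaled to the same total this was 67.7% (2821 higher, 1348 lower), and with the total taken without Lars2, Gm26917 and the mitochondrial rRNAs it was 78.2% (3906 higher, 1090 lower). That last total kept the small nucleolar RNAs, which took 0.0458% to 0.0503% of all counts in mdx and 15.4% to 18.8% in wild type. Their part in the rise to 78.2% was not tested. The log2 fold changes of the members themselves moved little beside their size, to −7.56 for Lars2 and 4.39 for Gm26917 under the last scaling.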

How the data were processed

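The deposited table gives 1 value per gene and library on mm10 coordinates. The submitters' processing notes name STAR 2.6.1d, featureCounts 1.6.3 (Subread), DESeq2 1.18.1 and DESeq. The unit is treated as a score: the deposited values are normalized counts, scaled per library by the authors and rounded to whole numbers. This was read from the values, whose median ratio to the genes' geometric means was 1.0347 to 1.0355 in all libraries while totals differed. Of the whole numbers 1 to 30, 6 never occurred in mdx 1 and 0 in each other library, and whether mdx 1 had fewer reads was not tested. Raw counts were not restored, so no count model was used, and counting depth in reads is not known here.

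Values were tested as log2(normalized count + 2) with limma 3.58.1 in R 4.3.3 (trend, robust, genotype as the only term), for genes of at least 10 in at least 2 libraries. P-values are two-sided, Benjamini-Hochberg adjusted over all tested genes, threshold 0.05. A simulated table with large known changes in a small part of the genes, and otherwise equal groups, was used to test the limma fit. Transcripts were compared by exact 30-base words on both strands and by blastn 2.17.0. Lengths and GC content come from the longest GENCODE M21 transcript, found for 22649 of 22683 genes. RefSeq supplied Rn18s-rs5 (GRCm38.p6).

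The members and the gene lists were chosen with earlier results of these data known. Genes are named by a rule, apart from those the text says were named after their values were seen: both members, the mitochondrial rRNAs, the 10 largest mean shares, rRNA-like genes, the up to 4 called members of each list with the smallest p (2 where none was called), 5 neighbours on each side and the 5 genes nearest in pattern. Alternatives were other pseudocounts, filters and scalings, each library left out, and the replicate number as a block.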

Additional observations from a re-analysis of the deposited data

How the results depend on the processing

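The shares kept their direction under every alternative run. With the total taken without Lars2, Gm26917 and the mitochondrial rRNAs, the difference in share, mdx minus wild type, was −1.41 percentage points for Lars2 (−1.34 as reported) and 8.96 for Gm26917 (6.94 as reported). With a total of protein-coding and lincRNA genes only, an alternative chosen after seeing the data, Lars2 gave −1.81. With 1 library left out, the difference was −1.34 to −1.33 for Lars2, 5.70 to 7.72 for Gm26917 and 5.58 to 14.0 for the mitochondrial rRNAs.

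With 1 library left out, 1450 to 3308 genes were higher and 1112 to 1853 lower in mdx. The synthetases gave 0 to 1 higher and 0 to 2 lower, and the RNA polymerase I and rRNA processing genes 0 to 2 higher and 7 to 13 lower. A lone wild-type library was assumed to vary like the mdx libraries. With the total taken without Lars2, Gm26917 and the mitochondrial rRNAs, 3906 of 18186 tested genes were higher and 1090 lower. The RNA polymerase I and rRNA processing genes then gave 7 higher and 8 lower. With no filter they gave 1 higher. With pseudocount 10, and with a filter of at least 50, 1 synthetase was lower. The causes were not tested.

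Replicate numbers 1 and 2 occur in both genotypes, but nothing in the labels ties them, and same-numbered libraries did not deviate together (r = −0.0138 and −0.0173 across genes, which are not independent). With the number as a block, 1163 genes were higher and 860 lower, 0 synthetases were higher, and the rRNA genes gave 1 higher and 5 lower. Number 3 occurs only in mdx, so mdx 3 adds nothing to that fit. Of 17 genes named with a call, 7 kept it in all alternatives run and none reversed. Rounded values, 2 wild-type libraries and unknown read depth limit all of these.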
